A study of Mus musculus with 4 samples.

Results

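The calcium/calmodulin-dependent kinases and the inhibitors of CaMKII were examined in the mRNA bound to tagged ribosomes of CA1 neurons after repeated sleep deprivation (SD). The members were 10 genes of the 28193 in the deposited count table, taken as the rows that carry their names: Camk2a, Camk2b, Camk2d, Camk2g, Camk2n1, Camk2n2, Camk1d, Camk1g, Camk4 and Camkk2. All 10 had more than 5 counts in every library and were tested within a fit of 22338 genes. No member passed the threshold of the edgeR test in either direction. Camk1g, which encodes an isoform of CaMKI, came closest, with a log2 fold change of 0.26 in SD over non-sleep-deprived (NSD) mice. Camk2a, the most abundant member, differed by less than the spread between libraries.

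fosTRAP-seq isolates the ribosomes of neurons in which the Fos promoter was active while a tagging window was open. Per the study's methods, the experimental animals were male C57BL/6J mice of 3 to 5 months. At a surgery weeks earlier they had received a pair of viral vectors in dorsal CA1: a Fos-driven, tamoxifen-dependent Cre, and an HA-tagged Rpl22 that Cre switches on under the EF1a promoter. Both groups were sleep deprived for 5 h on day 0, when 4-hydroxytamoxifen opened the tagging window, so the NSD mice also carry tags from a first deprivation. On day 7 the SD mice were kept awake by gentle handling for 5 h again, the NSD mice were left undisturbed, and tissue was taken at ZT5. Each library pooled the CA1 of 5 mice, with 2 libraries per group, and all p-values measure the spread between such pools. The labels instead name the tissue as dorsal hippocampus and the genotype as cFos-Cre:Ribotag, and they place library 1 of each group in batch 1 and library 2 in batch 2.

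Calcium that enters a neuron binds calmodulin, and calcium-loaded calmodulin switches on these kinases. CaMKII, built from subunits encoded by Camk2a, Camk2b, Camk2d and Camk2g, is a major protein of the excitatory postsynapse and can phosphorylate itself on a threonine of its regulatory segment, which keeps it active after calcium has fallen. Camk2n1 and Camk2n2 encode small proteins that bind active CaMKII and block it. In the parallel cascade, CaMKK2, encoded by Camkk2, phosphorylates and activates CaMKI (here Camk1d and Camk1g) and the largely nuclear CaMKIV (Camk4), which acts on the transcription factor CREB.

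The reads of such closely related genes can only be told apart where their sequences differ, so the conserved coding stretches of the kinases and of the inhibitors are shown, 5′ to 3′ on the coding strand and read from the GRCm39 genome with GENCODE vM39 transcripts. Capitals mark positions at which the genes of a set differ. The first set spans codons 280 to 299 of 3 CaMKII genes, the autophosphorylation segment, with the threonine codon 287 eighth in the run. The segment of Camk2a is not shown and does not enter the identities given here, but Camk2a entered the comparison of whole transcripts that follows them.
Camk2b, chr11:5938961-5939020, minus strand: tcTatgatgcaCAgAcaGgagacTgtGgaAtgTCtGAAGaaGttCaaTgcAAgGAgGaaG
Camk2d, chr3:126591369-126591428, plus strand: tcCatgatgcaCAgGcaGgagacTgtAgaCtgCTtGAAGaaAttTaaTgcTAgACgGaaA
Camk2g, chr14:20810471-20810530, minus strand: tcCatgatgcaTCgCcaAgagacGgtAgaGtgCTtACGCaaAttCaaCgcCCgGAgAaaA
Across these 60 bases 23 positions varied. Camk2b and Camk2d were identical at 48 of 60 bases, Camk2d and Camk2g at 43, and Camk2b and Camk2g at 40. The second set is a stretch of 63 bases of the inhibitors, which begins at codon 42 in Camk2n1 and codon 43 in Camk2n2 and crosses 1 intron in each gene.
Camk2n1, chr4:138182620-138182662 and chr4:138184029-138184048, plus strand: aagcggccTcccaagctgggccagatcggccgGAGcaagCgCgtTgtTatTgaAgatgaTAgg
Camk2n2, chr16:20439776-20439818 and chr16:20438974-20438993, minus strand: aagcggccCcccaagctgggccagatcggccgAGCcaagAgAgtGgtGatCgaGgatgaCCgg
The inhibitors were identical at 51 of 63 bases. Over whole canonical transcripts, no run of 50 bases in any member occurred in another member, and only Camk2a shared such runs with genes outside the family (23 of 5138 runs, 0.448%). Exons of Camk2n2 faced 748 bases of Eef1akmt4 on the opposite strand, but the total count of Eef1akmt4 was 1.24% of that of Camk2n2, and the opposite-strand partners of Camk2g, Camk4 and Camkk2 held less still. Whether the authors' counting used strand is not given in the sources used here.

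Totals ranged from 153511705 to 195910235 counts per library, and the lowest count of any member in any library was 5478, for Camk2n2. The tagged fraction carried neuronal transcripts, with 693 to 808 CPM of Slc17a7, the glutamate transporter of excitatory terminals, and 279 to 441 CPM of the CA1 marker Wfs1. Markers of other cells were also present, with 311 to 332 CPM of the interneuron gene Gad1, 880 to 1073 CPM of the myelin gene Mbp and 152 to 187 CPM of the astrocyte gene Gfap. CPM here is the count relative to library size after TMM scaling in edgeR. For 4 of 6 CA1 pyramidal markers the lowest NSD library exceeded the highest SD library, with log2 fold changes that included -0.39 for Wfs1, -0.35 for Fibcd1 and -0.41 for Man1a. Of the others, Mpped1 had 437 and 454 CPM in NSD and 481 and 504 CPM in SD (0.14), and Pou3f1 overlapped between groups (0.08). None of the 6 was called by edgeR and these 4 were called lower with the replicate block, beside 27.5% of all genes with the SD pair wholly below and 8.47% called lower with the block. All 6 endothelial markers had log2 values below 0, with a median of -0.76, 0 called by edgeR and 4 called lower with the block. Their summed level was 36.8 and 52.1 CPM in NSD and 30.7 and 20.7 CPM in SD. The 5 excitatory markers had a median of 0.08 and a summed level of 1689 and 2039 CPM in NSD and 1878 and 2002 CPM in SD, and 1 of them, Neurod6, was called lower with the block (log2 -0.35, adjusted p = 0.112 by edgeR and 0.0025 with the block). The summed level of 6 interneuron markers was 774 to 810 CPM in NSD and 719 to 796 in SD, that of 6 astrocyte markers 373 to 407 and 380 to 415, that of 6 microglial markers 67.3 to 83.8 and 63.5 to 84.3, that of 6 oligodendrocyte markers 1440 to 1734 and 1602 to 1685, and that of 4 dentate granule cell markers 61.1 to 68.2 and 59.96 to 66.0. The part of cell makeup in the results below was not tested, and in pooled tissue fewer cells of a type and less RNA per cell cannot be told apart.

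Levels of the members differed widely. Per kilobase of canonical exon, the mean over 4 libraries was 824 CPM for Camk2a, with libraries between 788 and 844, and 411 CPM for Camk2b, between 364 and 447. Camk2n1 followed at 79.2 CPM per kilobase, above Camk2g at 49.4. Camk1d (40.5) and Camkk2 (38.1) overlapped between libraries, as did Camk1g (15.2) and Camk2n2 (14.4). Camk4 lay between these pairs at 22.5, and Camk2d was lowest at 7.84 CPM per kilobase. Every other neighbouring pair in this order had no overlap between libraries. The order depends on the length used: with coding length in its place, Camk2n1, whose coding sequence is only 234 of 4662 bases, moved above Camk2b. The canonical transcript of Camk2n2 in this annotation (2677 bases) is longer than the gene in the deposited table (2073 bases), so its level per kilobase is a low estimate.

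**Figure D1:**
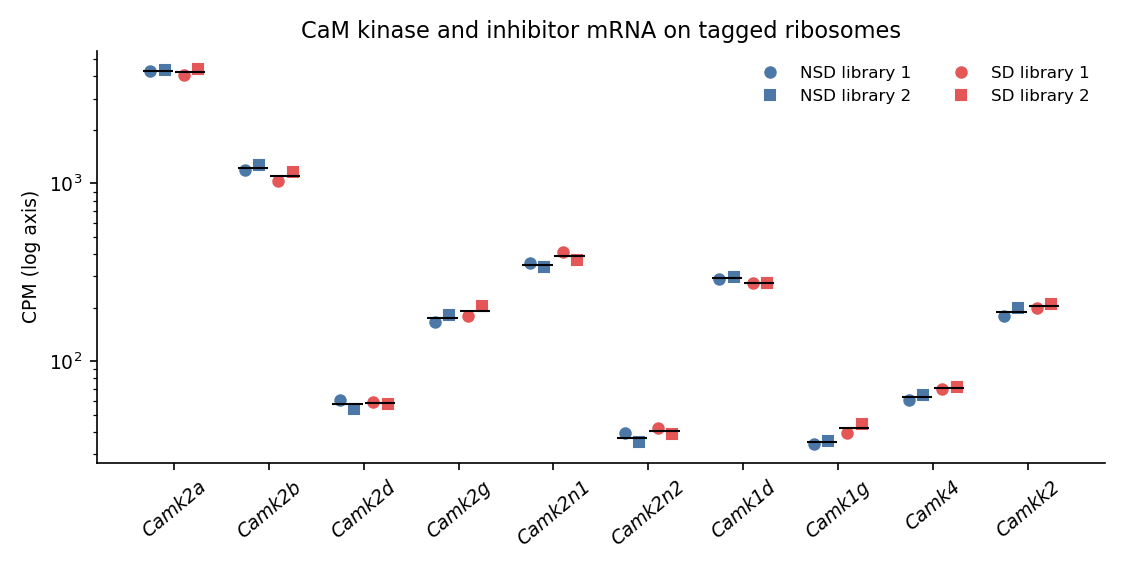
CPM after TMM scaling (log axis) of each of the 10 members in the NSD (blue) and SD (red) libraries, with circles for batch 1, squares for batch 2 and black lines for group means. Camk2a lies highest, between 4090 and 4379 CPM, and for Camk2n1, Camk1g, Camk4 and Camkk2 the red points lie above the blue points.

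The first question was whether a second deprivation moved the mRNA of the CaMKII subunits. Camk2a, which encodes the α subunit that dominates in forebrain excitatory neurons, lies at GRCm39 chromosome 18, 61058690 to 61121224, on the plus strand. Its level was 4285 and 4338 CPM in NSD libraries 1 and 2 and 4090 and 4379 CPM in SD libraries 1 and 2, so that the SD libraries lay on either side of the NSD libraries. The log2 fold change was -0.03 (standard error 0.12, 95% interval -0.30 to 0.25, adjusted p = 0.944 by edgeR). A rise above 0.25 or a fall beyond 0.30 on the log2 scale lay outside this interval, and smaller changes could not be told from 0.

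Camk2b encodes the β subunit, which binds actin filaments in spines (chromosome 11, 5919644 to 6016362, minus strand). It stood at 1187 and 1262 CPM in NSD and at 1029 and 1166 CPM in SD. The SD pair lay below the NSD pair, although the higher SD library and the lower NSD library were close. The log2 fold change was -0.16 (standard error 0.11, interval -0.40 to 0.09, adjusted p = 0.495 by edgeR), and it was -0.21 within batch 1 and -0.11 within batch 2. Without SD library 1 it was -0.07 and without SD library 2 it was -0.24.

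Neither of the other subunit genes was separated between groups. Camk2g (chromosome 14, 20784943 to 20844156, minus strand), which encodes the γ subunit known as a carrier of calmodulin to the nucleus, had 167 and 181 CPM in NSD and 180 and 203 CPM in SD, and the groups overlapped. Its log2 fold change was 0.14 (standard error 0.09, interval -0.06 to 0.34, adjusted p = 0.456 by edgeR), with 0.11 and 0.17 in the 2 batches. It was 0.06 without SD library 2 and 0.23 without SD library 1. Camk2d (chromosome 3, 126389951 to 126639975, plus strand), which encodes the δ subunit, had 60.7 and 53.8 CPM in NSD and 58.8 and 57.4 CPM in SD, with both SD libraries between the NSD libraries. Its log2 fold change was 0.02 (standard error 0.08, interval -0.15 to 0.20, adjusted p = 0.920 by edgeR). The sign depended on single libraries, with 0.14 without NSD library 1 and -0.06 without NSD library 2.

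Among the inhibitors, Camk2n1 (chromosome 4, 138181625 to 138187434, plus strand) was the more abundant. It had 355 and 337 CPM in NSD and 413 and 372 CPM in SD, so that the groups did not overlap and SD was the higher. The log2 fold change was 0.18 (standard error 0.09, interval -0.02 to 0.38) with an adjusted p of 0.313 by edgeR, 0.100 with the replicate block and 0.0950 by DESeq2. Without SD library 1 it was 0.11, and without SD library 2 it was 0.27. Camk2n2 (chromosome 16, 20437965 to 20440037, minus strand) had 39.2 and 34.9 CPM in NSD and 41.8 and 38.8 CPM in SD. These ranges overlapped, and the log2 fold change was 0.12 (standard error 0.08, interval -0.07 to 0.31, adjusted p = 0.493 by edgeR). Its size moved with single libraries, to 0.24 without NSD library 1, 0.19 without SD library 2, 0.07 without SD library 1 and 0.04 without NSD library 2.

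The CaMKI genes had values of opposite sign, and edgeR called neither. Camk1g (chromosome 1, 193028654 to 193052606, minus strand) encodes CaMKIγ, a membrane-anchored form known for its part in dendrite growth. Its level was 34.1 and 35.6 CPM in NSD and 39.4 and 44.2 CPM in SD, and the SD pair stood clear of the NSD pair. The log2 fold change was 0.26 (standard error 0.08, interval 0.08 to 0.44, unadjusted p = 0.00981 and adjusted p = 0.111 by edgeR), and the fold of 1.199 was itself just under the 1.2 that a call needed. With the replicate block its adjusted p was 0.0144 at the same size, and DESeq2 called it higher (log2 fold change 0.28, adjusted p = 0.0360). Without SD library 1, the lower of the SD pair, edgeR also called it, at 0.34 with an adjusted p of 0.0480. Without any one of the other libraries it was not called, with 0.19 (adjusted p = 0.539) without SD library 2, 0.26 (0.193) without NSD library 1 and 0.29 (0.119) without NSD library 2. Camk1d (chromosome 2, 5298268 to 5719326, minus strand), which encodes CaMKIδ, had 291 and 299 CPM in NSD and 274 and 273 CPM in SD. The SD pair was the lower, without overlap, and the log2 fold change was -0.11 (standard error 0.08, interval -0.28 to 0.07, adjusted p = 0.515 by edgeR).

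In the nuclear branch, Camk4 (chromosome 18, 33067984 to 33324281, plus strand) had 60.5 and 64.3 CPM in NSD and 69.9 and 71.1 CPM in SD. The SD pair was again the higher, without overlap, and the log2 fold change was 0.18 (standard error 0.07, interval 0.02 to 0.33) with an adjusted p of 0.192 by edgeR, 0.0529 with the replicate block and 0.0932 by DESeq2. Camkk2 (chromosome 5, 122869233 to 122917472, minus strand), the kinase upstream of CaMKI and CaMKIV, had 179 and 198 CPM in NSD and 199 and 210 CPM in SD. The lower SD library exceeded the higher NSD library by less than 1 CPM, and the log2 fold change was 0.12 (standard error 0.08, interval -0.07 to 0.30, adjusted p = 0.499 by edgeR).

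Over the whole family, 0 of 10 members were called higher by edgeR, beside 0.770% of the genes tested, and 0 lower, beside 2.33%. With the replicate block, 0 members were called in either direction, where 2.99% of genes were called higher and 8.47% lower. Camk1g passed the adjusted p there (0.0144) and missed the call by its fold alone, with a log2 value of 0.260 against 0.263. DESeq2 called 1 member, Camk1g, higher, beside 2.99% of genes. An unadjusted p under 0.05 was found for 2 of 10 members, Camk1g and Camk4, beside 19.1% of all genes. The SD pair lay wholly above the NSD pair for 4 members (22.0% of genes) and wholly below for 2 (27.5% of genes). All members are protein-coding, and among the 15551 protein-coding genes of the same fit 4126 (26.5%) had the SD pair wholly above and 3106 wholly below, with 14.6% at an unadjusted p under 0.05, 0.952% called higher and 0.540% lower by edgeR, and 3.77% and 3.29% with the block. The median log2 fold change of the members was 0.12, against -0.02 over all genes tested and 0.02 over protein-coding genes, with 7 members above 0. Without SD library 2 the median of the members was 0.07. The 2 batches gave the same sign for 8 members, the exceptions being Camk2a and Camk2d, and for 67.3% of genes.

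**Figure D2:**
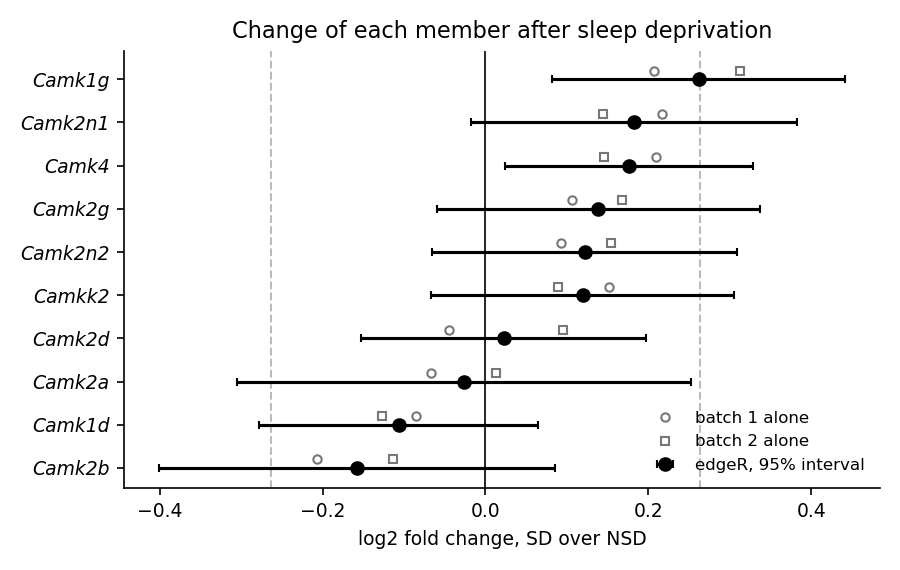
Log2 fold change of SD over NSD for each member, as the edgeR estimate with its 95% interval (black) and within batch 1 (open circles) and batch 2 (open squares), with dashed lines at the 1.2-fold threshold. The intervals of Camk1g and Camk4 lie above 0 and the other 8 cross it. No edgeR estimate passes a dashed line, while the batch 2 value of Camk1g (0.31) does.

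Ratios between members within a library do not depend on the scaling between libraries. Taking counts per kilobase of canonical exon, Camk2a made up 63.5% and 62.4% of the 4 CaMKII genes in NSD libraries 1 and 2 and 65.2% and 63.9% in SD libraries 1 and 2. Camk2b made up 32.4% and 33.4% in NSD and 30.1% and 31.3% in SD. For both shares the groups did not overlap, and the ratio of Camk2a to Camk2b was 1.92 ± 0.0655 in NSD and 2.10 ± 0.0848 in SD (s.d., n = 2 each), or 9.67% higher in SD. Camk2g contributed 3.47% and 3.65% in NSD and 4.02% and 4.16% in SD, again without overlap, and Camk2d less than 0.7% in every library. These levels depend on the length used. With coding length the ratio of Camk2a to Camk2b was 4.91 in NSD and 5.38 in SD, without division by length 3.52 and 3.86, and with the merged exons of all annotated transcripts 5.26 and 5.77, while the Camk2b share was 16.2% and 15.0% with coding length. The difference of 9.67% in Camk2a to Camk2b was the same on every scale, since the lengths cancel. The Camk2a share overlapped between groups when the exons of all annotated transcripts were merged, at 81.2% and 80.5% in NSD against 82.0% and 81.2% in SD.

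The inhibitor genes stood at 6.99 and 6.37 per 100 of the CaMKII genes in NSD and at 8.61 and 7.15 in SD, on the same scale per kilobase. The SD mean was 18.0% higher (7.88 ± 1.03 against 6.68 ± 0.437, s.d., n = 2 each), and the lower SD library was only just above the higher NSD library. Camk2n1 per 100 Camk2a was 9.22 and 8.64 in NSD and 11.2 and 9.46 in SD, a mean 15.8% higher. As a ratio of SD to NSD this was 1.16, and it was 1.06 without SD library 1 and 1.26 without SD library 2. For both inhibitors per CaMKII the ratio of 1.18 became 1.07 and 1.29. The levels of these ratios hold only for canonical exon length: with coding length the inhibitors stood at 45.1 and 41.6 per 100 of the CaMKII genes in NSD and 55.0 and 46.0 in SD, and with merged exons at 16.4 and 15.1 and at 19.9 and 16.7. Camk2n1 per 100 Camk2a had a mean of 49.2 in NSD and 57.0 in SD with coding length. The ratio of Camk1g to Camk1d was 0.326 and 0.330 in NSD and 0.399 and 0.448 in SD, a mean 29.1% higher. Each of these separations had an exact two-sided permutation p of 0.333, which is the smallest that 2 libraries against 2 can give, so none could pass 0.05.

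**Figure D3:**
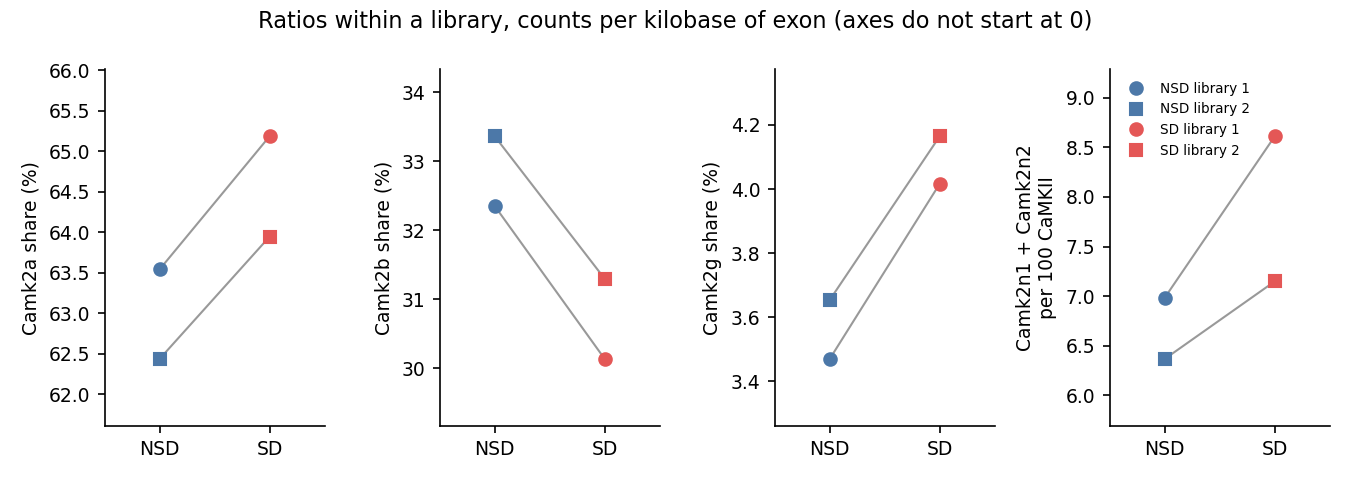
Shares of Camk2a, Camk2b and Camk2g among the 4 CaMKII genes (percent) and the sum of Camk2n1 and Camk2n2 per 100 of these genes, per kilobase of exon, in each library, with grey lines joining the NSD and SD libraries of a batch and axes that do not start at 0. In both batches the Camk2a and Camk2g shares and the inhibitor ratio are higher in SD and the Camk2b share is lower.

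The genes around these kinases were read from 5 lists with 56 genes, all of which were tested. By edgeR 1 of 56 was called higher, Ppm1f, beside 0.770% of all genes, and 1 lower, Cacnb2, beside 2.33%. With the replicate block these counts were 3 and 1, beside 2.99% and 8.47%. Log2 fold changes had a median of 0.04, and the SD pair was wholly above the NSD pair for 17 genes (22.0% of all genes) and wholly below for 9 (27.5%). Ppm1f, a phosphatase that removes the activating phosphate from CaMKII, had 70.0 and 70.4 CPM in NSD and 87.5 and 84.5 CPM in SD. It rose by 0.29 on the log2 scale (standard error 0.06, adjusted p = 0.0490 by edgeR, 0.00314 with the block). DESeq2 also called it (adjusted p = 0.000908), and the study names Ppm1f among its upregulated genes. The edgeR call just passed the threshold and was lost without any single library. Each of those fits leaves 1 library in a group, and their log2 values ranged from 0.27 to 0.33. The 6 other phosphatase genes were not called and had log2 values of -0.03 to 0.12. The lowest of these was Ppm1e, the neuronal relative of Ppm1f (647 and 744 CPM in NSD, 649 and 711 CPM in SD), 200 exon bases of which face Trim37, a gene with 74.9% of its count.

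Of 16 CaMKII partners and substrates at the synapse, only Cacnb2, a β subunit of voltage-gated calcium channels, was called, beside 2.33% of all genes called lower by edgeR and 8.47% with the block. Among protein-coding genes those shares were 0.540% and 3.29%. Cacnb2 fell from 63.2 and 60.4 CPM in NSD to 50.1 and 49.9 CPM in SD, a log2 change of -0.31 (standard error 0.07, adjusted p = 0.0480 by edgeR, 0.00331 with the block). DESeq2 also called Cacnb2 (adjusted p = 0.00788). Its edgeR call was lost without NSD library 1 (log2 -0.25), SD library 1 (-0.31) or SD library 2 (-0.29). Each of those fits leaves 1 library in a group. The other 15 were not called, among them the NMDA receptor subunit Grin2b, which anchors CaMKII at the synapse (4258 and 4498 CPM in NSD, 5197 and 4391 CPM in SD, log2 0.13). The largest positive value of the list was 0.17, for the Rac activator Tiam1, with 173 and 177 CPM in NSD and 191 and 204 CPM in SD (adjusted p = 0.254 by edgeR).

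Among the calmodulin-binding buffers, Gap43, a protein of growing axons, had 72.2 and 76.0 CPM in NSD and 89.9 and 89.3 CPM in SD. Its log2 fold change of 0.27 had an adjusted p of 0.0611 by edgeR and was called with the block (adjusted p = 0.00485). It was also called by DESeq2 (adjusted p = 0.00229) and by edgeR with the size factors of DESeq2 (0.0482). The most negative value was -0.11, for Pcp4, a calmodulin-binding peptide with only 2.01 to 2.42 CPM (adjusted p = 0.853 by edgeR), and was -0.02 without NSD library 2.

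Among 11 nuclear targets of CaMKIV and CaMKI, 9 had log2 values above 0 and the median was 0.10. The SD pair was wholly above the NSD pair for 7 (22.0% of all genes) and wholly below for 0 (27.5%). No gene of the list was called by edgeR, and 5 had an unadjusted p under 0.05 (19.1% of all genes): Hdac4 (0.28), Crem (0.25), Srf (0.23), Hdac5 (0.22) and Creb1 (0.19). Hdac4, a histone deacetylase that CaM kinases send out of the nucleus, had 138 and 129 CPM in NSD and 157 and 167 CPM in SD. Its adjusted p was 0.0829 by edgeR and 0.0112 with the block, which called it, as did DESeq2. Creb1, the main target of CaMKIV, had 62.8 and 62.4 CPM in NSD and 74.8 and 67.6 CPM in SD (adjusted p = 0.205 by edgeR). Mef2a was lowest at -0.03, with 202 and 204 CPM in NSD and 192 and 206 CPM in SD, and 1081 of its exon bases face Lysmd4, which has 10.5% of its count.

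The 15 other calmodulin-dependent kinases had a median of -0.07, and 0 were called by edgeR, with the block or by DESeq2, with 1 (Dclk2, -0.19) at an unadjusted p under 0.05. Over all genes edgeR called 0.770% higher and 2.33% lower, the block 2.99% and 8.47%, and 19.1% had an unadjusted p under 0.05. Among protein-coding genes these were 0.952% and 0.540%, 3.77% and 3.29%, and 14.6%. In this list 10 genes were below 0 and 5 above, beside 11805 below 0 of 22338 genes tested and 7117 of 15551 protein-coding genes. The lowest was Dapk2, a death-associated kinase, at -1.20, but its level was only 0.398 and 0.242 CPM in NSD and 0.177 and 0.100 CPM in SD (standard error 0.54, adjusted p = 0.274 by edgeR). With 1 library left out it ranged from -1.67 to -0.77. The highest was Mylk3, a muscle kinase, at 0.28 from levels of 0.0827 to 0.144 CPM (adjusted p = 0.856 by edgeR), and it ranged from 0.01 without NSD library 2 to 0.65 without NSD library 1. The pseudokinase Camkv, the most abundant in the list after Dclk1, had 468 and 486 CPM in NSD and 448 CPM in both SD libraries, a log2 value of -0.09 (adjusted p = 0.638 by edgeR).

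**Figure D4:**
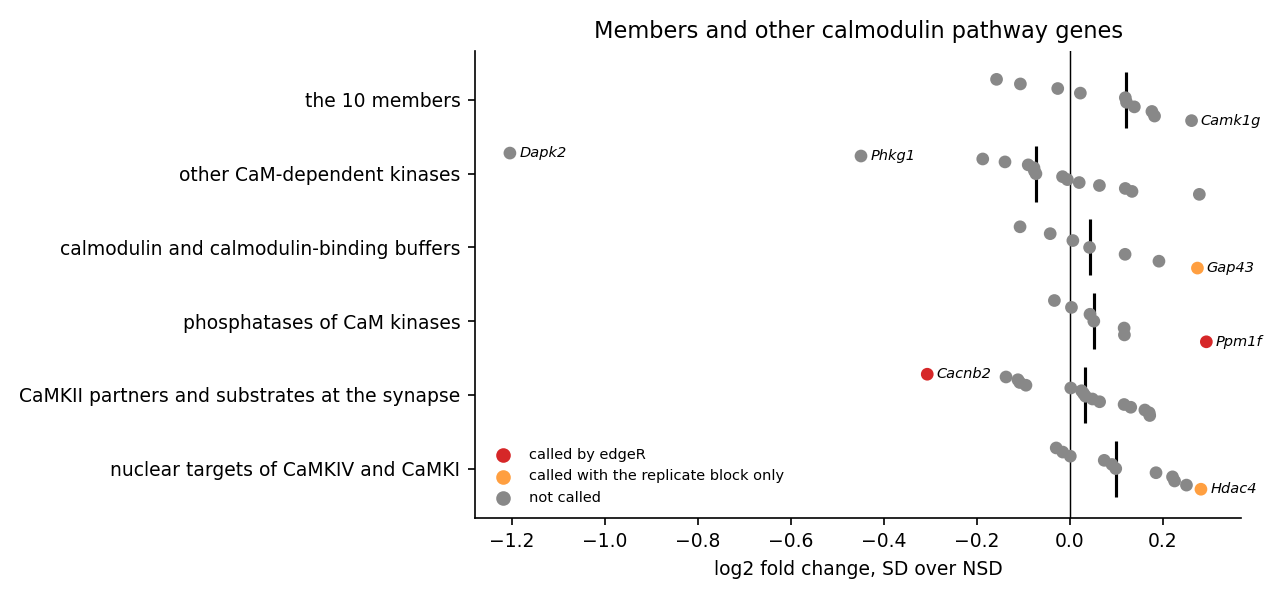
Log2 fold change of SD over NSD for each gene of the 10 members and of the 5 lists of calmodulin pathway genes, with black lines at each median. Red points are genes called by edgeR, and orange points are genes that edgeR called with the replicate block but not without it. The medians run from -0.07 for the other kinases to 0.12 for the members. The red genes are Ppm1f and Cacnb2, and the orange genes Gap43 and Hdac4. Calls by DESeq2 are not marked.

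Genes other than members were also searched for the same course over the 4 libraries as the members with the largest rise and fall in value. Among 8634 protein-coding genes with a mean of at least 10 CPM, the smallest distances of centred log2 CPM from Camk1g were those of Wdcp (0.0136), Gpatch11 (0.0217) and Mtmr4 (0.0296). Mtmr4 had 126 and 133 CPM in NSD and 148 and 167 CPM in SD. Nearest to Camk2b were Mast3 (0.0181), Gpr137c (0.0182) and Ext2 (0.0230), and Mast3 had 396 and 428 CPM in NSD and 347 and 394 CPM in SD. With 4 libraries such nearness is a description only.

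The deposited table holds 9 further genes whose spans lie inside a member, 7 of them inside Camk2d and 1 each inside Camk1d and Camk1g. The 7 are of the annotation class TEC, loci with transcript evidence that still awaits experiment, lie on the strand of Camk2d, and share 0 bases with its annotated exons. Together they held 3.85% as many counts as Camk2d. Of these, 5 passed the count filter, and their summed level was 3.87 and 3.12 CPM in NSD and 1.27 and 0.518 CPM in SD, while Camk2d itself changed by 0.02 on the log2 scale. In 4 of the 5 the SD pair was the lower without overlap: Gm43009 (1.05 and 0.834 CPM in NSD, 0.243 and 0.0687 CPM in SD, log2 -2.59), Gm42515 (-2.06), Gm43011 (-1.94) and Gm43010 (-1.79). Their adjusted p was 0.0521 to 0.0909 by edgeR, which called 0 of 5, and all 4 were called lower with the block. The fifth, Gm42514, overlapped between groups (log2 0.01). Of all genes, 8.47% were called lower with the block and 27.5% had the SD pair wholly below. Most of these 22338 genes (15551) were protein-coding. Protein-coding genes were only 512 of the 1891 called lower with the block, and 3106 of the 6147 with the SD pair wholly below. Both were thus more frequent among the other classes, to which TEC loci belong. Whether the Camk2d loci differed from other TEC loci was not tested. Over the whole table, TEC loci took 0.273% and 0.210% of all counts in NSD libraries 1 and 2 and 0.157% and 0.118% in SD libraries 1 and 2. The part of this difference in the Camk2d loci was not tested.

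**Figure D5:**
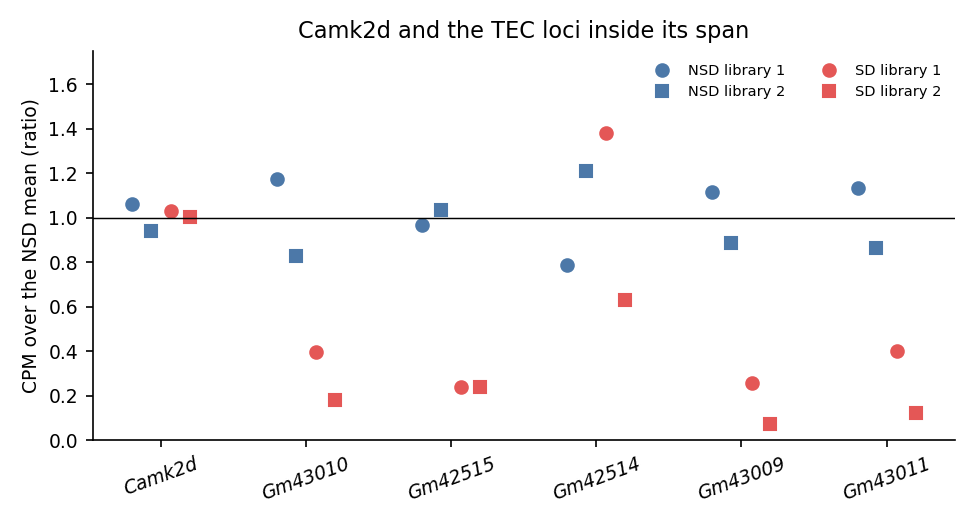
CPM of Camk2d and of the 5 tested TEC loci inside its span in each library, divided by the mean of the NSD libraries, with circles for batch 1 and squares for batch 2. Camk2d stays near 1 in every library, 4 loci lie below 0.5 of the NSD mean in both SD libraries, and Gm42514 does not.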

How the data were processed

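fosTRAP-seq libraries from 4 pools of CA1 tissue (2 NSD, 2 SD) were analysed. The authors trimmed poor 3′ bases, aligned with STAR to mm39 (GRCm39) and estimated counts per Ensembl gene in Partek Flow by expectation-maximization, and they deposited these estimated counts unnormalized. At least 1 value of 55.5% of the 28193 genes is not whole within 1e-09, so the counts were rounded. The 22338 genes above 5 counts in all libraries entered a fit in edgeR 4.0.16 (R 4.3.3), using TMM scaling, a quasi-likelihood fit on condition, and Benjamini-Hochberg adjustment over all genes tested. Genes were called at an adjusted p below 0.05 with a fold above 1.2. Intervals are 95% intervals of that fit. Totals were 153511705 to 195910235 per library.

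The members and lists were chosen with earlier results of these data known. Named were all members, pathway genes called by edgeR or with the replicate block, otherwise the highest and lowest of each list, and the 3 nearest genes to 2 members. Grin2b, Camkv, Dclk2, the other 4 nuclear targets with a low p, the marker genes and the loci inside Camk2d were named after their values were seen, and Nrgn stood in both the buffer and the excitatory marker lists. Exon lengths were those of GENCODE vM39 canonical transcripts. The labels give replicate and batch the same number, which pairs the libraries, but same-numbered libraries deviated together only weakly (correlation 0.178). The block uses up part of the 2 residual degrees of freedom. It called 668 genes higher and 1891 lower, against 172 and 520 without it, so its p-values carry that limit. Alternatives were DESeq2 1.42.0, its size factors in edgeR, 2 other count filters, protein-coding genes only, the block, no fold threshold, other lengths and each library left out. Results for some genes are not reported here.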

Additional observations from a re-analysis of the deposited data

How the results depend on the processing

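Counts of called genes changed with the settings. With the replicate block, 0 members and 3 pathway genes were called higher, and 0 members and 1 pathway gene lower. DESeq2 called 1 member and 3 pathway genes higher, and its size factors in edgeR 2 pathway genes higher and 0 lower. Without a count filter, with filterByExpr, and with protein-coding genes only, 0 pathway genes were called in either direction, where all genes called numbered 50, 1 and 51 higher (172 in the reported fit) and 80, 0 and 39 lower (520). Leaving out a library gave 0 to 1 members higher (1 without SD library 1), 0 to 0 pathway genes higher and 0 to 1 lower, with the lone library of a group assumed to vary like the other group. Members called lower stayed at 0. Signs turned for Camk2a without a count filter (0.0021), and with a library left out for Camk2a (-0.064 to 0.022), Camk2d (-0.062 to 0.141), Ppm1e (-0.102 to 0.072) and Mef2a (-0.069 to 0.020). Under the 6 settings that keep all libraries, Camk1g ranged from 0.24 to 0.29, Camk2n1 from 0.16 to 0.21, Camk4 from 0.16 to 0.20 and Camk2b from -0.18 to -0.13. With a library left out, these ranges were 0.19 to 0.34, 0.11 to 0.27, 0.16 to 0.22 and -0.24 to -0.07, those of Camkk2 and Camk1d 0.08 to 0.19 and -0.11 to -0.09, and the inhibitors per 100 CaMKII were 1.07 to 1.29 times as high in SD. The median of the members was 0.07 to 0.13. The union of exons as a length was added after seeing the data. The causes of these differences were not tested.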
